A study of Homo sapiens with 4 samples.

Results

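The genes described here are NFE2L2, which encodes the transcription factor NRF2, and 8 genes known as NRF2 targets: HMOX1, NQO1, TXNRD1, SLC7A11, GCLM, GCLC, SRXN1 and OSGIN1. They were taken by name from the gene tables, and all 9 of the 9 names were found, once each, among 26485 gene identifiers. RNA was sequenced from SW1736 and 8505C, 2 established cell lines derived from anaplastic thyroid cancer, an undifferentiated and aggressive thyroid tumour. Each line was given vehicle (DMSO) or 1.5 µM DHT for 24 h, where DHT stands for dihydrotanshinone, a quinone from Salvia root, and not for the androgen. There are 4 groups (SW1736 with DMSO, SW1736 with DHT, 8505C with DMSO and 8505C with DHT) of 1 library each, so no value below has a replicate error and no test was run.

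NRF2 is held in the cytoplasm by KEAP1, which presents it to a CUL3 ubiquitin ligase for destruction. Electrophiles such as quinones modify cysteines of KEAP1, and NRF2 then escapes, enters the nucleus, pairs with a small MAF protein and binds antioxidant response elements (AREs). BACH1 pairs with the same small MAF proteins and represses some of these genes, among them HMOX1. Because NRF2 is controlled mainly through its stability, its own mRNA is a poor guide to its activity, and the mRNAs of its targets are the usual readout. They fall into heme breakdown (HMOX1), quinone reduction (NQO1), the thioredoxin system (TXNRD1, SRXN1), glutathione synthesis (SLC7A11, GCLC, GCLM) and growth control under oxidative stress (OSGIN1).

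Levels are given as TPM, the length-scaled share of all transcripts, so they can be compared between genes. Differences are log2 folds of TPM + 1, which understate the change of low genes, and 2-fold (1 on this scale) was the size at which a gene was counted. They were computed for the 11711 protein-coding genes whose TPM averaged 1 or more. Among those averaging 5 TPM or more, the median log2 fold with DHT was -0.43 in SW1736 and -0.03 in 8505C, so a member of SW1736 is also given relative to that median gene. The depth, read from the ratio of coverage to FPKM, was 3.27 to 4.15 Gb of aligned bases per library. Keratin and other epithelial markers summed to between 2910 and 3657 TPM in each library (the sum of 5 genes, of which EPCAM and CDH1 were under 1 TPM in all), while TSHR, the thyrotropin receptor gene of differentiated thyroid cells, was listed at 0 in all 4 libraries. The thyroid transcription factor genes were split between the lines: with DMSO and DHT, PAX8 was at 87.1 and 117 TPM and FOXE1 at 60.6 and 22.3 TPM in SW1736, both under 1 TPM in 8505C, and NKX2-1 was listed at 0 in SW1736 and was at 69.8 and 174 TPM in 8505C. Fibroblast markers summed to 589 and 283 TPM in SW1736 with DMSO and DHT, nearly all of it COL1A1 and COL1A2, and to 3.45 and 8.93 TPM in 8505C, mostly COL3A1, while PDGFRB, DCN and LUM were under 1 TPM in every library. Endothelial markers summed to 0.269 and 0.195 TPM in SW1736 and to 129 and 148 TPM in 8505C, where CDH5 alone gave 128 and 147 and the other 5 were under 1 TPM. Their part in the results below was not tested.

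In SW1736 given DHT, HMOX1 was far higher, and none of the other 8 genes was 2-fold higher. TXNRD1 and SLC7A11 were more than 2-fold lower, and GCLM, GCLC, NQO1, NFE2L2, SRXN1 and OSGIN1 were within 2-fold. In 8505C none of the 9 genes differed 2-fold in either direction. Of the 9 genes 1 was thus at least 2-fold higher in SW1736, where 2.78% of all tested genes were, and 2 were at least 2-fold lower, where 15.6% were. With so few genes, 2 of 9 is near the share of all genes. Relative to the median gene, 1 member was 2-fold higher and 1, SLC7A11, lower in SW1736, where 4.77% and 4.07% of all tested genes were. In 8505C 0.273% of all tested genes were 2-fold higher and 0.171% lower, or 0.29% and 0.171% relative to the median gene. The median log2 fold of the members was -0.10 in SW1736, beside -0.42 for all tested genes, and -0.13 in 8505C, beside -0.03.

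**Figure D1:**
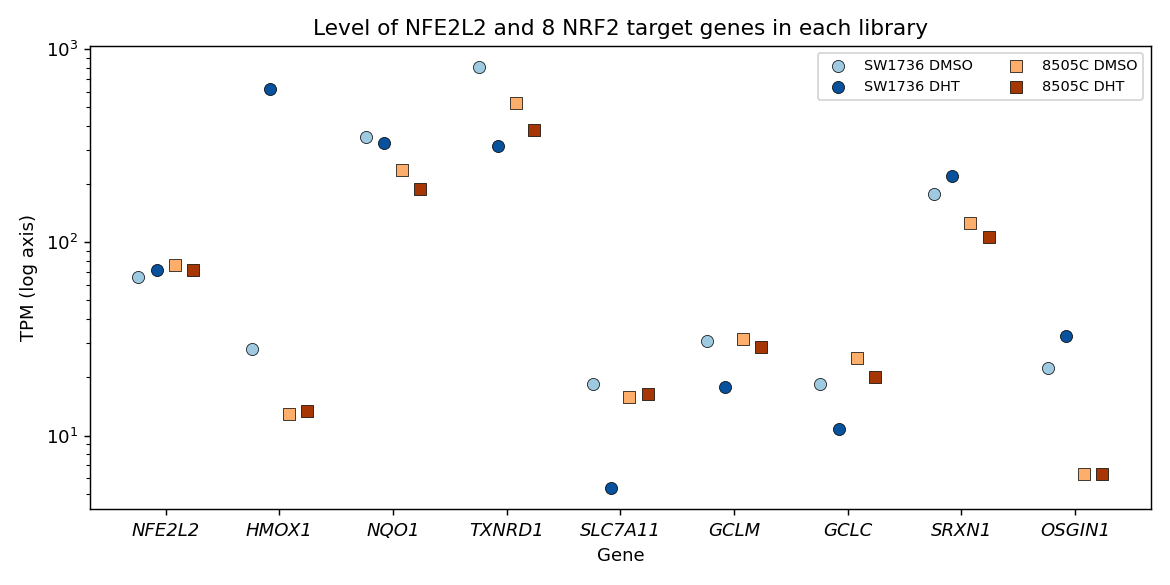
TPM (log axis) of NFE2L2 and its 8 target genes in the 4 libraries, 1 point per library, circles for SW1736 and squares for 8505C, with the darker shade for DHT. HMOX1 of SW1736 with DHT, at 619 TPM, stands apart from its other 3 values of 12.9 to 28.2 TPM, whereas NFE2L2 lies between 66.3 and 76.6 TPM in all 4.

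HMOX1 encodes heme oxygenase 1, the inducible enzyme that opens heme into biliverdin, carbon monoxide and iron (hg38, chromosome 22, 35381067 to 35394214, plus strand). Its level was 28.2 TPM in SW1736 with DMSO and 619 with DHT, and 12.9 in 8505C with DMSO and 13.4 with DHT. The SW1736 library with DHT was the high one, and of the other 3 the SW1736 library with DMSO was above both 8505C libraries. The log2 fold was 4.41 in SW1736, or 4.84 relative to the median gene, and 0.05 in 8505C. By this fold it ranked 21 from the top of 11711 genes in SW1736 and 3551 in 8505C, and its place among the gene levels of SW1736 moved from 5359 to 223. HMOX1 made up 1.85% of the summed TPM of the 9 genes in SW1736 with DMSO and 38.2% with DHT. The sum of the other 8 was 1493 TPM with DMSO and 1000.1 with DHT in that line, and 1047 and 819 TPM in 8505C.

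In bulk RNA, more cells with a transcript and more of it per cell cannot be told apart. HMOX1 is also abundant in macrophages, so their markers were read beside it. CD68 and CD14 were the 2 of 10 macrophage markers that averaged 1 TPM or more, and AIF1 and TYROBP were listed at 0 in all 4 libraries. The markers summed to 15.4 and 24.7 TPM in SW1736 with DMSO and DHT and to 51.3 and 67.8 TPM in 8505C, mostly CD68. SPI1, a defining transcription factor gene of macrophages, was at 1.09 TPM in SW1736 with DHT and under 1 TPM in the other 3 libraries. Their part in the HMOX1 values was not tested. HMOX2, the constitutive heme oxygenase, gave a reference within the same library that does not depend on scaling: its levels were 87.6 and 71.6 TPM in SW1736 and 97.6 and 105.8 in 8505C. The ratio of HMOX1 to HMOX2 was 0.322 in SW1736 with DMSO and 8.65 with DHT, and 0.132 and 0.126 in 8505C. HMOX1 was thus the lesser of the pair in 3 libraries and the greater in SW1736 with DHT.

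NFE2L2 itself (hg38, chromosome 2, 177230303 to 177265131, minus strand) was nearly level in TPM, at 66.3 and 72.1 TPM in SW1736 with DMSO and DHT and at 76.6 and 72.1 in 8505C. Its log2 folds with DHT were 0.12 in SW1736 and -0.09 in 8505C. The SW1736 value was 0.33 with FPKM in place of TPM and 0.55 relative to the median gene. Ranked by level, it stood between place 2108 and place 2733 of 11711 genes in each library. NQO1, which reduces quinones by 2 electrons at once and is a widely used marker of NRF2 activity (hg38, chromosome 16, 69709401 to 69726668, minus strand), stood at 352 and 327 TPM in SW1736 and at 237 and 189 in 8505C. SW1736 was the higher line in both conditions, and the log2 folds with DHT were -0.10 in SW1736 and -0.33 in 8505C. The SW1736 value changed sign, to 0.12, with FPKM in place of TPM, and was 0.32 relative to the median gene.

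The thioredoxin system recycles oxidised peroxiredoxins and other thiols with NADPH. TXNRD1, the cytosolic thioredoxin reductase (hg38, chromosome 12, 104215779 to 104350307, plus strand), was the most abundant of the 9 genes in SW1736 with DMSO and in both 8505C libraries. It stood at 808 TPM in SW1736 with DMSO and at 313 with DHT, and at 528 and 380.2 TPM in 8505C. It was lower with DHT in both lines, by a log2 fold of -1.36 in SW1736 and -0.47 in 8505C. Relative to the median gene the SW1736 value was -0.94, short of 2-fold. In 8505C, where few genes moved, -0.47 placed TXNRD1 at 102 from the bottom of 11711 genes. EID3, an entry on the same strand that overlaps TXNRD1, was at 1.45 and 3.79 TPM in SW1736 and under 1 TPM in 8505C.

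SRXN1, sulfiredoxin, which restores overoxidised peroxiredoxins (hg38, chromosome 20, 646624 to 653370, minus strand), stood at 177 and 221 TPM in SW1736 and at 126 and 106 TPM in 8505C. The higher of the SW1736 values was that with DHT, and the higher of the 8505C values was that with DMSO, with log2 folds of 0.31 and -0.24. Relative to the median gene the SW1736 fold was 0.74. The ratio of SRXN1 to TXNRD1 went from 0.2196 to 0.704 in SW1736, a 3.21-fold difference, and from 0.239 to 0.279 in 8505C. TXN, the thioredoxin that TXNRD1 reduces, was at 836 and 922 TPM in SW1736 and at 688 and 681 in 8505C. The ratio of TXNRD1 to TXN was 0.967 with DMSO and 0.3398 with DHT in SW1736, beside 0.767 and 0.558 in 8505C, and so was lower with DHT in both lines.

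Glutathione synthesis starts with cystine uptake by xCT, the product of SLC7A11, which works as a pair with the heavy chain encoded by SLC3A2. SLC7A11 (hg38, chromosome 4, 138164094 to 138242349, minus strand) was at 18.5 TPM in SW1736 with DMSO and 5.34 with DHT, and at 15.9 and 16.5 TPM in 8505C. One library, SW1736 with DHT, was low and the other 3 were alike, with log2 folds of -1.62 in SW1736 and 0.05 in 8505C. Relative to the median gene of SW1736, SLC7A11 was at -1.19, still past 2-fold. SLC3A2 differed the other way, with 259.9 and 858 TPM in SW1736 and 220.2 and 208 TPM in 8505C, a log2 fold of 1.72 and -0.08. SLC3A2 mRNA was thus 14.1 times as abundant as SLC7A11 mRNA in SW1736 with DMSO and 161 times with DHT, beside 13.8 and 12.7 times in 8505C. The antisense entry SLC7A11-AS1 was at or under 0.573 TPM in every library.

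GCLC and GCLM encode the catalytic and the modifier subunit of glutamate-cysteine ligase, the enzyme that joins the first peptide bond of glutathione. GCLC (hg38, chromosome 6, 53497341 to 53545129, minus strand) was at 18.4 and 10.8 TPM in SW1736 and at 25.2 and 20.2 in 8505C. GCLM (hg38, chromosome 1, 93885200 to 93909598, minus strand) was at 30.8 and 17.9 TPM in SW1736 and at 31.6 and 28.8 in 8505C. Both were lower with DHT in both lines, with log2 folds of -0.72 and -0.31 for GCLC and of -0.75 and -0.13 for GCLM. In SW1736 these lay -0.29 and -0.33 from the median gene. The subunits kept their proportion in SW1736, with a GCLM to GCLC ratio of 1.67 with DMSO and 1.65 with DHT, and the ratio was 1.25 and 1.43 in 8505C.

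OSGIN1, an oxidative stress induced growth inhibitor gene (hg38, chromosome 16, 83953222 to 83966332, plus strand), was at 22.3 and 32.7 TPM in SW1736 and at 6.34 and 6.33 TPM in 8505C. The SW1736 libraries were both above the 8505C libraries. Its log2 fold with DHT was 0.53 in SW1736, or 0.96 relative to the median gene, and was -0.0028 in 8505C. After HMOX1, OSGIN1 and SRXN1 were the members with the highest fold in SW1736, at places 614 and 1034 from the top of 11711 genes.

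**Figure D2:**
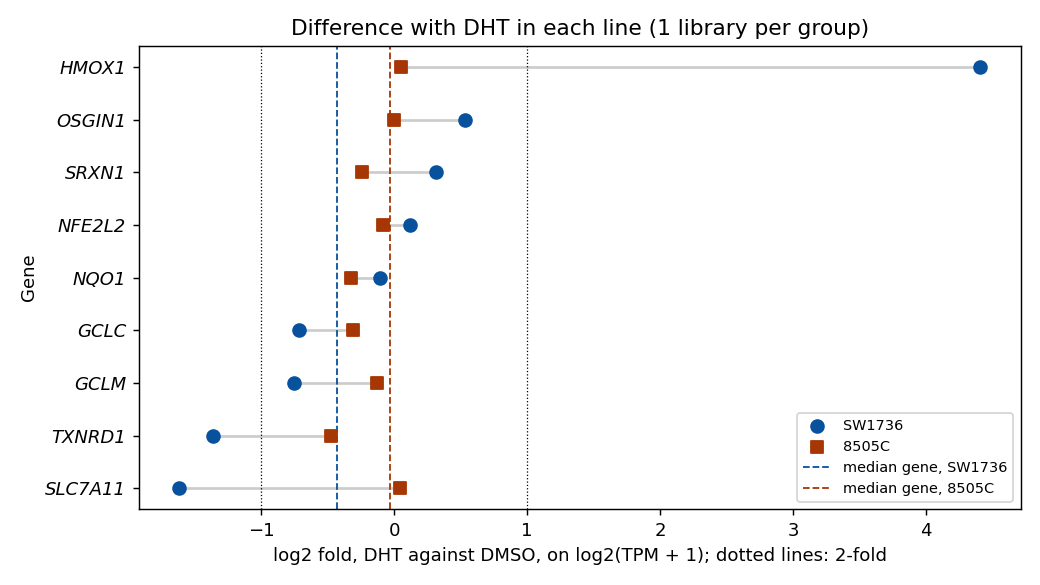
Log2 fold with DHT against DMSO of each gene in SW1736 (circles) and 8505C (squares), 1 library per group, on the log2(TPM + 1) scale. Dotted lines mark 2-fold, and dashed lines the median gene of each line, at -0.43 in SW1736 and -0.03 in 8505C. HMOX1 of SW1736 is at 4.41, SLC7A11 at -1.62 and TXNRD1 at -1.36, and all 9 squares lie between -0.47 and 0.05.

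Seen across all tested genes, the 9 folds of SW1736 spread from the low to the high end of the distribution, whereas those of 8505C lay close together. In 8505C, 7 of the 9 were below 0, where the median of all tested genes was itself -0.03, and 6 were below the median gene. By definition about as many genes lie below the median gene as above it, so with 9 genes these counts alone show little. TXNRD1, NQO1, GCLC and SRXN1 were at places 102, 289, 350 and 711 from the bottom of 11711 genes. The corresponding changes in TPM were -28.0%, -20.3%, -20.0% and -15.7%, all well short of 2-fold. Whether they exceed the difference between cultures was not tested.

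**Figure D3:**
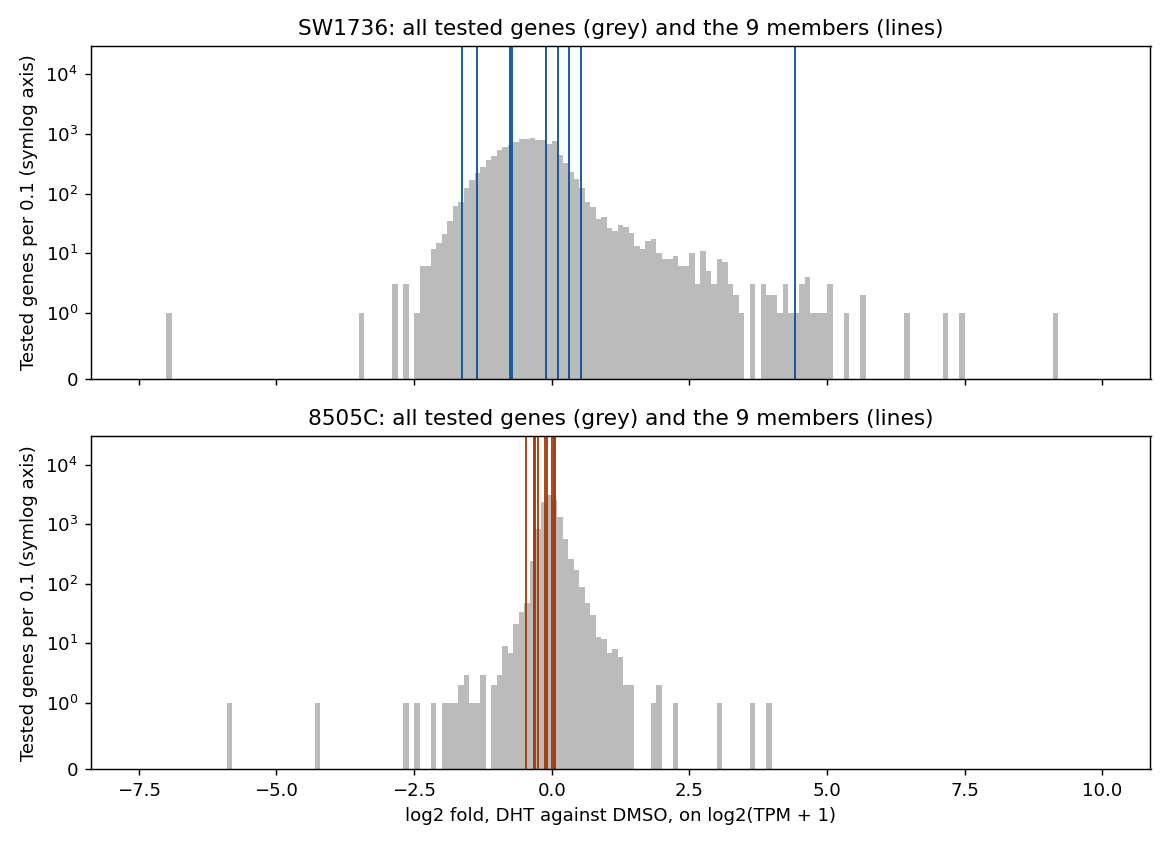
Number of tested genes in each 0.1-wide bin of the log2 fold with DHT (grey, axis linear up to 1 and logarithmic above) in SW1736 (top) and 8505C (bottom), with a line at each of the 9 members. In SW1736 the lines run from -1.62 (SLC7A11) to 4.41 (HMOX1), and in 8505C from -0.47 (TXNRD1) to 0.05 (HMOX1).

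Transcript length moved with the folds of SW1736. Over all tested genes, split into 3 equal groups by the longest coding transcript in GENCODE 29, the median log2 fold with DHT was -0.14 in the short group (up to 2548 bases), -0.46 in the middle and -0.72 in the long group (from 4492 bases). HMOX1 (1.82 kb) and OSGIN1 (2.39 kb) are in the short group and SLC7A11 (9.64 kb) and GCLM (4.86 kb) in the long one. Relative to its own length group, SLC7A11 was at -0.90 and TXNRD1 at -0.90, so neither passed 2-fold in that measure, whereas HMOX1 stood at 4.55. GCLM, at -0.75 before, was at -0.04 relative to its length group. The part of length in these differences was not tested.

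Promoter sequences were read from RefSeq (GRCh38.p14) for the genes whose entry could be matched, 7 of the 9, as windows from 250 bases before to 50 after a start. NFE2L2 and TXNRD1 had 2 windows each, and HMOX1 and SLC7A11 were not among them. The ARE was searched as TGACNNNGC on both strands, which 13.3% of all 34943 windows hold, and the AP-1 element as TGANTCA, which 7.72% hold. The letters of the ARE were found for TXNRD1 and GCLM, and those of the AP-1 element for OSGIN1. The cAMP response element TGACGTCA (1.84% of windows) and a heat shock element GAANNTTC (6.79%) were not found in the 9 windows of the 7 genes searched. HMOX1 and SLC7A11, which had no window, were not searched. These matches are letters in a window and not sites shown to be bound. They are printed for the members that held one, and for 2 regulators described below, KEAP1 and MAFF. The KEAP1 window holds 2 ARE matches. That of MAFF, a small MAF gene, holds both the ARE and the cAMP response element. The other listed regulators were not looked up, so how many of them hold such letters is not given here. The strand is that of the gene, capitals mark the match, and the ARE matches of GCLM and MAFF, the second of KEAP1 and that at the inner TXNRD1 start read TGACNNNGC on the opposite strand.
GCLM, chr1:93909446-93909474: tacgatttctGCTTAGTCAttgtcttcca
TXNRD1, outer start, chr12:104215670-104215698: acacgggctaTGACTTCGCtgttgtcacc
TXNRD1, inner start, chr12:104286920-104286948: gtggatttctGCTTTGTCAttctgactct
OSGIN1, chr16:83953133-83953159: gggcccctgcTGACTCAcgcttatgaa
KEAP1, first match, chr19:10502807-10502835: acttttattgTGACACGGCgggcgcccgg
KEAP1, second match, chr19:10502784-10502812: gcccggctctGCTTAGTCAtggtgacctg
MAFF, ARE letters, chr22:38201862-38201890: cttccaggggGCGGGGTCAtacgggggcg
MAFF, cAMP response element, chr22:38201930-38201957: gccgggtcggTGACGTCAccgcatgact
The GCLM match begins 34 bases before its RefSeq start, those of TXNRD1 99 and 102, and that of OSGIN1 97. Those of KEAP1 begin 54 and 31 bases before, and those of MAFF 122 and 54. The RefSeq start of GCLM lies inside the gene span given above, and so does its match. The outer TXNRD1 window holds another ARE match, at its start.

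The regulators of NRF2 were read from a list of 14 genes, all of them measured. In SW1736 with DHT 3 were at least 2-fold higher and 2 lower, where 2.78% and 15.6% of all tested genes were. Their median log2 fold was -0.17, beside -0.42 for all tested genes. In 8505C none of the 14 was 2-fold either way, where only 0.273% and 0.171% of all tested genes were. The 3 higher genes, MAFF, MAFG and BACH1, encode proteins that sit at the ARE. Related genes of the list were within 2-fold in SW1736: MAFK at 0.32, BACH2 at -0.13, NFE2L1 at -0.65 and NFE2L3 at -0.83. MAFF was at 40.9 TPM in SW1736 with DMSO and 229.8 with DHT (log2 fold 2.46), and at 61.7 and 60.8 in 8505C. MAFG was at 26.0 and 69.4 TPM in SW1736 (1.38) and at 40.7 and 41.5 in 8505C. BACH1, the repressor, was at 14.6 and 56.6 TPM in SW1736 (1.89) and at 16.8 and 14.9 in 8505C. For all 3 of these genes the SW1736 library with DHT was the high one of the 4.

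The ratio of NFE2L2 to BACH1 mRNA was accordingly 4.55 in SW1736 with DMSO and 1.28 with DHT, and 4.57 and 4.85 in 8505C. KEAP1 was at 131 and 94.5 TPM in SW1736 and at 60.4 and 60.5 in 8505C, and the ratio of NFE2L2 to KEAP1 was 0.505 and 0.764 in SW1736 and 1.27 and 1.19 in 8505C. The 2 regulators lower in SW1736 with DHT were BTRC (-1.06), an adaptor of another ubiquitin ligase for NRF2, and CUL3 (-1.05), named after its value was seen. Neither was 2-fold lower relative to the median gene.

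**Figure D4:**
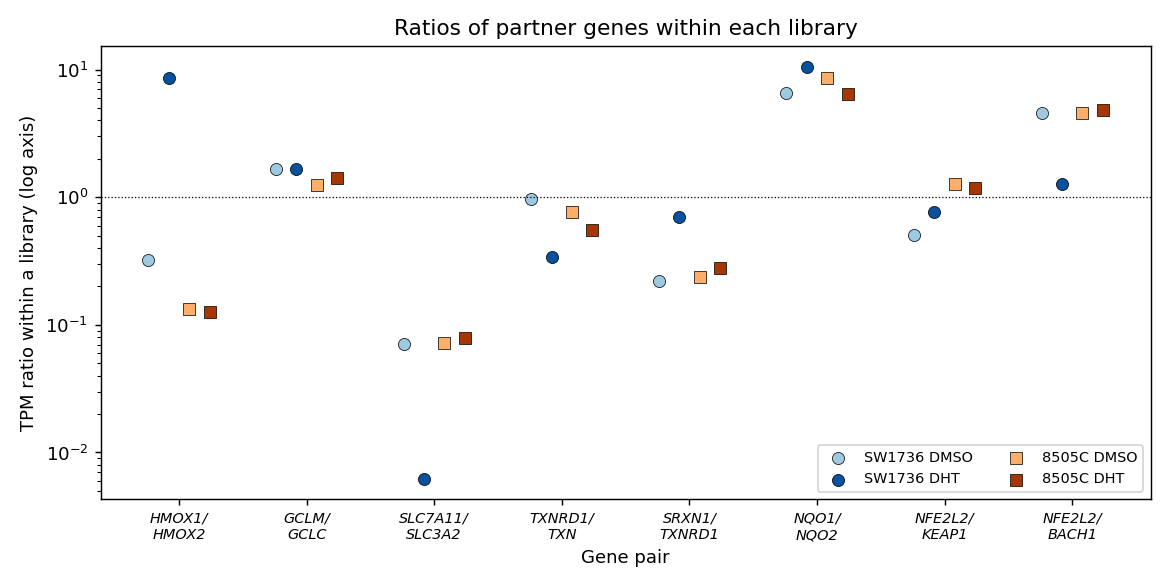
Ratio of the TPM of partner genes within each library (log axis), which does not depend on scaling between libraries. Circles are SW1736 and squares 8505C, with the darker shade for DHT. With DHT in SW1736 the HMOX1 to HMOX2 ratio was 8.65 against 0.322, and the NFE2L2 to BACH1 ratio was 1.28 against 4.55, whereas GCLM to GCLC was 1.65 against 1.67.

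Beyond the regulators, 6 lists of genes that work with the members were read: glutathione, thioredoxin and peroxiredoxin, quinone and carbonyl detoxification, NADPH supply, heme and iron, and superoxide and peroxide enzymes. With the regulators they hold 89 tested genes, of which 5 (5.62%) were at least 2-fold higher and 8 (8.99%) lower in SW1736, beside 2.78% and 15.6% of all tested genes. In 8505C none of the 89 was 2-fold either way, where 0.273% and 0.171% of all tested genes were, so this is near the share of all genes. Relative to the median gene of SW1736 the counts were 5 higher and 1 lower, beside 4.77% and 4.07% of all tested genes. Most of these genes were thus within 2-fold, 76 of the 89 in SW1736. Of the genes named below as 2-fold lower in SW1736, AKR1B10 was still so relative to the median gene, and MGST2, TXNIP, AKR1C3, IDH1 and FLVCR1 were not. The medians below, between -0.32 and 0.04 in SW1736, were between 0.11 and 0.47 relative to the median gene, and that of the regulators was 0.25, so the lists with a median below 0 turned sign with that scaling.

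The counts of each list stand beside 2.78% of all tested genes 2-fold higher and 15.6% lower in SW1736. In the glutathione list, 1 of 21 tested genes was 2-fold higher in SW1736, SLC3A2. Another 1 was lower, the microsomal transferase MGST2 (-1.02, from 2.92 to 0.928 TPM), and the median of the list was -0.06. In the thioredoxin and peroxiredoxin list of 13 tested genes, SESN2, a stress-induced sestrin, was higher (1.87, from 7.93 to 31.6 TPM), and TXNIP, which binds and inhibits thioredoxin, was lower (-1.13, from 63.9 to 28.7 TPM), with a median of -0.03. Of 13 quinone and carbonyl genes none was higher and 2 were lower, near the 15.6% of all genes. The 2 were the aldo-keto reductases AKR1B10 (-1.56) and AKR1C3 (-1.18), and the median of the list was -0.29. AKR1B10 was at 10.6 and 2.92 TPM in SW1736 and listed at 0 in 8505C, and AKR1C3 has close paralogs with which reads can be shared.

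Of 7 NADPH supply genes, 1 was lower in SW1736, near the 15.6% of all genes, the isocitrate dehydrogenase gene IDH1 (-1.14, from 39.0 to 17.2 TPM), and the median was 0.04. Of 18 heme and iron genes, none was higher and 1 was lower, FLVCR1, a heme exporter gene (-1.01, from 5.60 to 2.27 TPM), with a median of -0.30. HMOX1, kept outside that list, was thus the one heme gene read here that was 2-fold higher with DHT. The 3 tested superoxide and peroxide genes were within 2-fold, with a median of -0.32. In 8505C the medians of these 6 lists lay between -0.16 and -0.02.

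HMOX1 also answers to heat shock factor, ATF4, AP-1, metal and hypoxia signalling, and 22 genes of those routes were read for comparison. In SW1736 12 of the 22 were at least 2-fold higher with DHT and none lower, where 2.78% and 15.6% of all tested genes were, with a median of 1.30. In 8505C none was 2-fold either way, where 0.273% and 0.171% were, with a median of 0.01. The largest were FOS (7.11), ADM (6.48), FOSB (5.01) and ATF3 (4.71), whose 8505C values were -0.13, 0.37, -0.11 and -0.33. The routes were not alike in SW1736: the metal genes MT1X (0.47), MT2A (0.26) and MT1E (-0.07) were within 2-fold. So were HSF1 (-0.04), HSPH1 (0.35), ATF4 (0.82), TRIB3 (0.85), ASNS (-0.17), FOSL1 (0.54) and HIF1A (-0.50). The remaining genes of the list were 2-fold higher: JUN (4.23), HSPA1B (4.05), HSPA1A (4.04), DNAJB1 (3.06), DDIT3 (2.90), JUNB (2.51), BAG3 (1.50) and VEGFA (1.10). This list was drawn up with the response of SW1736 already known, so its direction is no independent evidence.

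**Figure D5:**
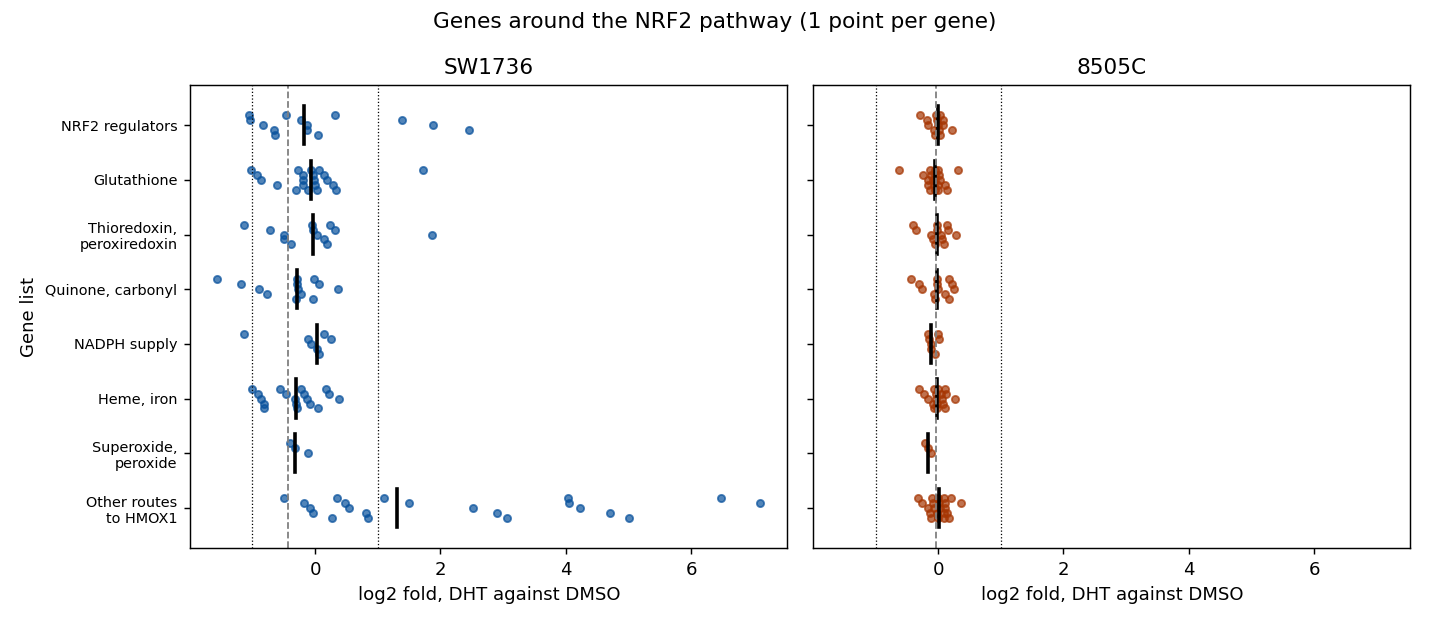
Log2 fold with DHT of the tested genes of each list in SW1736 (left) and 8505C (right), 1 point per gene, with a black bar at the median of the list, a dashed line at the median gene and dotted lines at 2-fold. In SW1736 the median was 1.30 for the other routes to HMOX1 and between -0.32 and 0.04 for the lists around NRF2 (0.11 to 0.47 relative to the median gene), and every point of 8505C lay within 2-fold.

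To describe which genes shared the pattern of a member, log2(TPM + 1) values were centred over the 4 libraries and the Euclidean distance was taken to 9745 other protein-coding genes averaging 5 TPM or more. The closest to HMOX1 were CSF2, a cytokine gene listed at 0 in both 8505C libraries (distance 0.199), the kinase gene SIK1 (0.346), FOSB (0.4400), the glucose transporter gene SLC2A3 (0.472) and the phosphatase gene DUSP8 (0.616). SIK1 was at 19.0 and 454 TPM in SW1736 and at 11.8 and 11.3 in 8505C. CSF2, FOSB and DUSP8 averaged 5 TPM only through SW1736 with DHT, where they were at 47.9, 88.6 and 77.6 TPM. Elsewhere they were under 5 TPM, where log2(TPM + 1) understates differences, so their likeness to HMOX1 rests largely on that library. The closest to SLC7A11 were ANKRD49 (0.0466), BBS10 (0.0651), TADA1 (0.0746), SLC35E2B (0.0791) and SLX4 (0.0906). The closest to NQO1 were C9orf91 (0.0547), LHPP (0.0608), DGCR14 (0.0734), TMEM38B (0.0914) and MYNN (0.108). With 4 libraries such distances describe the pattern and show nothing more.

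The lines given vehicle were compared next. With DMSO, 2 of the 9 genes were lower in 8505C than in SW1736 by 2-fold or more, OSGIN1 (log2 fold -1.67) and HMOX1 (-1.07), where 12.6% of all tested genes were. None was 2-fold higher, where 9.96% were. These counts were also 2 and 0 relative to the median gene, where 11.8% and 10.6% of all tested genes were. The other 7 lay between -0.61 for TXNRD1 and 0.44 for GCLC. HMOX1 passed 2-fold by little and was at -0.89 with a pseudocount of 5.

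With DHT, 3 of the 9 were at least 2-fold lower in 8505C, HMOX1 (-5.43), OSGIN1 (-2.20) and SRXN1 (-1.05), where 10.6% of all tested genes were. SLC7A11 was higher (1.46), where 24.7% were. Relative to the median gene, which lay 0.38 higher in 8505C, 4 were lower, with NQO1 at -1.17 as the added one, and 1 was higher, where 16.3% and 14.4% of all tested genes were. These comparisons share their libraries with those of DHT against DMSO and are not independent of them. TXNRD1, at -0.61 between the lines with DMSO, was at 0.28 with DHT. Relative to the median gene it was at -0.57 and -0.10, so the change of sign depended on the scaling. The GCLM to GCLC ratio was higher in SW1736 than in 8505C in both conditions.

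Among the 89 genes of the surrounding lists, 10 were at least 2-fold higher and 18 lower in 8505C with DMSO (11.2% and 20.2%, beside 9.96% and 12.6% of all tested genes). For NADPH supply, 3 of 7 genes were lower and 1 was higher, with a median of -0.49. For quinone and carbonyl detoxification 5 of 13 were lower and 3 higher, with a median of -0.75, beside -0.05 for all tested genes. That median was -0.19 with no filter on low values.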

How the data were processed

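mRNA libraries were made with the Universal Plus mRNA-Seq kit from 1 µg of total RNA, per the labels' protocols. The submitters' processing notes name bcl2fastq 2.20, StringTie and the hg38 build. An aligner, an annotation and a strand setting were not given in the sources used here. Per the file headers, the deposited tables hold TPM, FPKM and coverage. TPM as deposited sums to 1000000 per library, so a gain of some mRNAs lowers all others. FPKM as deposited is scaled by length and mapped fragments, and the deposited coverage is a signal, the mean depth of reads, with no library scaling. Without read numbers no counting interval could be had. Coverage of the members was 9.06 or more in every library.

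Rows of one identifier were summed. Of 26485 identifiers 25371 were matched to RefSeq genes (23758 by symbol, 823 through GENCODE 29 and 790 by synonym), 19038 of them protein-coding. Folds are differences of log2(TPM + 1) for protein-coding genes averaging 1 TPM or more. Python 3.11.15, pandas 2.3.3 and numpy 2.4.6 were used, and the fold script was tested on simulated data. Lengths were found for 11687 of 11711 genes.

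The members and lists were chosen with earlier results of these data known. By rule, genes named from a list are those at least 2-fold with the largest fold, up to 4 in SW1736 and up to 3 in 8505C. Both genes of each ratio and the 5 genes nearest in pattern to HMOX1, SLC7A11 and NQO1 are named too. Some regulators within 2-fold in SW1736, and the remaining genes of the other routes, were named after their values were seen. The alternatives were other pseudocounts, filters and a 1.5-fold threshold, FPKM, median scaling and TPM rescaled after ribosomal protein genes and non-coding genes were left out, with 3 groups of transcript length added after the data were seen.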

Additional observations from a re-analysis of the deposited data

Results flagged for a closer look

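Of the 29 genes named by the rule for members, ratios and lists, 16 had log2 folds with DHT of opposite sign in SW1736 and 8505C. The share of all tested genes with opposite signs was not computed, so the count is not read as a trait of these genes. Signs were taken at 0, whereas the median gene was at -0.43 in SW1736 and -0.03 in 8505C. A SW1736 value below 0 can thus lie above the median gene, as that of HMOX2 (-0.29) does. With 1 library per group this difference was not tested, and where a value is near 0 its sign carries little.

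Among the members, SLC7A11 was at -1.62 in SW1736 and 0.046 in 8505C. SRXN1 was at 0.31 and -0.24, OSGIN1 at 0.53 and -0.0028, and NFE2L2 at 0.12 and -0.086. Higher in SW1736 and lower in 8505C were also MAFF (2.46 and -0.023), BACH1 (1.89 and -0.16), SLC3A2 (1.72 and -0.080), TXN (0.14 and -0.015), FOS (7.11 and -0.13), FOSB (5.01 and -0.11) and ATF3 (4.71 and -0.33). Lower in SW1736 and higher in 8505C were AKR1C3 (-1.18 and 0.17), BTRC (-1.06 and 0.017), NQO2 (-0.77 and 0.11), KEAP1 (-0.47 and 0.0031) and HMOX2 (-0.29 and 0.12).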

How the results depend on the processing

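Across the alternatives, the groups of transcript length included, the log2 fold of HMOX1 with DHT in SW1736 lay between 4.23 and 4.84. The count of members 2-fold lower in SW1736 with DHT, 2 as reported, was 1 with median scaling, 4 at a 1.5-fold threshold and 0 relative to genes of the same mRNA length. Between the lines with DMSO the count of members lower in 8505C, 2 as reported, was 1 with a pseudocount of 5. With DHT the count higher in 8505C, 1 as reported, was 3 at a 1.5-fold threshold and 0 relative to genes of the same mRNA length. Other counts of members 2-fold apart stayed within 1.5 times. No called member changed sign. Of the list medians under the alternatives 207 stayed close and 17 moved, all of them under median scaling except that of the quinone and carbonyl list between the lines with DMSO, which was -0.19 with no filter on low values.

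Of all tested genes in SW1736, 325 were 2-fold higher and 1824 lower with DHT, beside 342 and 706 with FPKM, 559 and 477 with median scaling, 226 and 688 with a pseudocount of 5, 550 and 4477 at a 1.5-fold threshold, and 576 and 324 relative to genes of the same mRNA length. In 8505C 32 were higher and 20 lower, beside 91 and 36 with a pseudocount of 0.1, 13 and 13 with a pseudocount of 5, 19 and 14 among genes averaging 5 TPM or more, and 148 and 63 at a 1.5-fold threshold. Between the lines with DMSO 1167 were higher and 1480 lower in 8505C, beside 723 and 877 with a pseudocount of 5 and 2212 and 2833 at a 1.5-fold threshold. With DHT the counts were 2890 and 1244, beside 1712 and 828 with a pseudocount of 5, 1880 and 1333 with FPKM, 1691 and 1908 with median scaling, 4790 and 2003 at a 1.5-fold threshold, and 1547 and 1834 relative to genes of the same mRNA length. The causes were not tested. In SW1736 the share of higher genes among those 2-fold apart was 15.1%, beside 32.6% with FPKM, 54.0% with median scaling and 64.0% relative to genes of the same mRNA length. Within a line, no paired analysis was possible because each group has 1 library and the labels carry no replicate numbers. For the same reason no replicate could be left out within a line. A fit over both lines with the line as a block, which would take the lines as replicates, was not run. SLC7A11, the least covered member in SW1736 with DHT, and OSGIN1 in 8505C rest on a mean read depth of 10.5 and 9.06.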
